A study of Mus musculus with 26 samples.

Results

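The collagen genes of C2C12 myoblasts were followed over differentiation, with 2 siRNAs against SMYD3 and in a clone made to overexpress it. All protein-coding genes whose GENCODE M21 mouse symbol has the form of a collagen alpha chain (Col, a type number, the letter a and a chain number) were taken, which gave 44 genes of 27 collagen types among the 55341 genes listed for each library. C2C12 cells are mouse myoblasts kept as a line; once moved to differentiation medium they stop dividing and fuse to myotubes. SMYD3 is a lysine methyltransferase of the SET and MYND domain family, and the study asked how its loss and its gain alter muscle differentiation.

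Messenger RNA was sequenced from 26 libraries of these cells. The siRNA experiment held 18 libraries: the cells received siCtrl, siSMYD3#1 or siSMYD3#2, and each treatment was sampled at 0 h and at 24 h of differentiation with 3 libraries per group. Of these 3, 2 were extracted with the NucleoSpin kit and 1 with TRIzol, and the passage of the cells changed together with the extraction method. The overexpression experiment held 8 libraries, all extracted with TRIzol, from cells with the empty vector (pREV) and from pREV-SMYD3 CL5, called SMYD3 CL5 here, at 0 h and 24 h with 2 libraries per group. SMYD3 CL5 is 1 clonal line with a retroviral tagged SMYD3, so that what is particular to this clone and what follows from SMYD3 cannot be told apart. The study's methods call the libraries of a group biological replicates, and the labels do not say whether they came from separate cultures, so that p-values measure the spread between these libraries.

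Collagens are the main structural proteins of the extracellular matrix, built from alpha chains that wind around each other into a rigid helix. Fibrillar collagens form the ropes of tendon, skin and the connective tissue around muscle fibres, type IV collagen forms the sheet of the basement membrane on which each fibre lies, and type VI collagen forms beaded filaments that link both. Other classes decorate fibrils, cross the cell membrane or carry heparan sulphate chains. In muscle the matrix is made mostly by fibroblasts and fibro-adipogenic cells, but cultured myoblasts transcribe many collagen genes as well.

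The siRNAs are shown because every contrast below rests on them. Their antisense (guide) strands were read from the design given by the authors, 5′ to 3′, with the seed (bases 2 to 8) in capitals:
siSMYD3#1: gUUGGGGUcacagcuguga
siSMYD3#2: uCAAAUCUucaaucaggcu
siCtrl: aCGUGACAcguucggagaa
The 3 seeds differ from each other. Among mouse transcripts, the sense strands of siSMYD3#1 and siSMYD3#2 each matched exactly in 1 gene, Smyd3 (3 and 4 of its 7 transcripts), and siCtrl matched in 0.

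The targeted gene passed the threshold with siSMYD3#2 and not with siSMYD3#1. In siCtrl Smyd3 lay at 19.5 to 21.6 CPM (counts relative to the library's total, scaled by the TMM method) at 0 h and at 17.8 to 20.7 CPM at 24 h. In the libraries labelled siSMYD3#1 it lay at 16.9 to 19.3 CPM at 0 h, below every siCtrl library of that time. At 24 h these libraries held 15.1 to 19.3 CPM, which overlapped siCtrl. Those labelled siSMYD3#2 held 6.37 to 8.93 CPM at 0 h and 5.36 to 9.64 CPM at 24 h. In the libraries labelled siSMYD3#1 the Smyd3 difference from siCtrl was not past the threshold (log2 fold change -0.16, SE 0.157, edgeR adjusted p = 0.785 at 0 h, and -0.24, SE 0.161, edgeR adjusted p = 0.414 at 24 h). With siSMYD3#2 Smyd3 fell by 1.41 (edgeR adjusted p = 0.000107) and by 1.51 (edgeR adjusted p = 5.06e-05) on the log2 scale at the same times. In SMYD3 CL5 the Smyd3 level was 16.9 to 27.1 CPM against 16.7 to 19.2 CPM with the vector (log2 fold change 0.29 and 0.36, edgeR adjusted p = 0.593 and 0.671 at 0 h and 24 h). The sources used here do not state whether the counts cover the vector-borne SMYD3 sequence. Each direction given below for siSMYD3#1 therefore belongs to libraries labelled so, in which Smyd3 was lower at both times without passing the threshold. These files hold no measure of the SMYD3 protein. The study measured Smyd3 by qPCR and SMYD3 by western blot after siRNA transfection in separate experiments, which are not part of these counts.

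Library totals ranged from 14315193 to 60398170 counts in the siRNA experiment and from 21124675 to 67853386 in the overexpression experiment, and 0 pairs of libraries were identical. A gene at 3 counts, used as the floor, corresponded to 0.0442 to 0.21 CPM, which covers counting error only. The TRIzol siRNA libraries stood apart from the NucleoSpin libraries: 26.1% of 15820 genes tested were called higher and 25.3% lower in TRIzol, and of the 31 collagen genes tested 14 were higher and 9 lower. Col12a1, a fibril-associated collagen, was 4.21-fold higher in TRIzol (edgeR adjusted p = 1.64e-08) and Col7a1, the anchoring fibril collagen of skin, 3.2-fold lower. The extraction method was a covariate in every siRNA contrast, and the 2 kinds of library are also given apart.

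The cells carried the myogenic markers of their label. The summed level of 7 myoblast markers (among them Myod1, Myf5 and Des) was between 256 and 1970 CPM across the siRNA groups. It also ranged widely within a group, from 275 to 1370 CPM in siCtrl at 0 h. Between extraction methods, 4 of the 7 were called lower and 1 higher in TRIzol, where 25.3% and 26.1% of all genes tested were. Of the 10 differentiated muscle markers below, 4 were lower and 0 higher in TRIzol. The 10 differentiated muscle markers (among them Myog, Mymk, Myh3 and Ckm) summed to 14.1 to 19.9 CPM in siCtrl at 0 h and to 758 to 2420 CPM at 24 h. Of the markers of other collagen-producing cells, Tcf21 (fibroblast) and Ibsp (osteoblast) were at 0 in all libraries, and Thy1, Matn1, Cnmd and Adipoq were at 3 counts or fewer in each. Other members of these lists were expressed: in siCtrl at 0 h the fibroblast marker Pdgfrb averaged 277 CPM, the osteoblast factor Runx2 72.9 CPM and the chondrocyte factor Sox9 47.9 CPM, and the fibroblast marker Dcn averaged 50 CPM in siCtrl at 24 h.

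Collagen transcripts took between 1.05% and 3.02% of all counts of a library. Levels between genes were compared per kb of exon. As the mean of the 10 group means, Col3a1 stood first at 508 CPM per kb, followed by Col1a2 (180), Col6a1 (175), Col5a2 (149), Col4a1 (127) and Col5a1 (117). The next were Col6a3 (113), Col4a2 (107), Col18a1 (98.3), Col5a3 (57.5) and Col1a1 (55). The leading genes thus covered fibrillar types I, III and V, type IV, type VI and the multiplexin type XVIII. Col1a1 stood below its partner Col1a2, although the heterotrimer of type I collagen holds more of the Col1a1 chain. Of the 44 genes, 14 had a mean of 100 CPM or more, 10 lay between 1 and 100 CPM and 20 under 1 CPM. Among the last were the cartilage genes Col2a1, Col9a1, Col9a2 and Col9a3, the growth plate gene Col10a1, and Col4a3 and Col4a4 of kidney basement membrane. Col13a1, a transmembrane collagen of the neuromuscular junction, was at 0 in all 26 libraries, and Col9a2, Col6a6 and Col9a1 reached at most 3 counts in any.

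**Figure D1:**
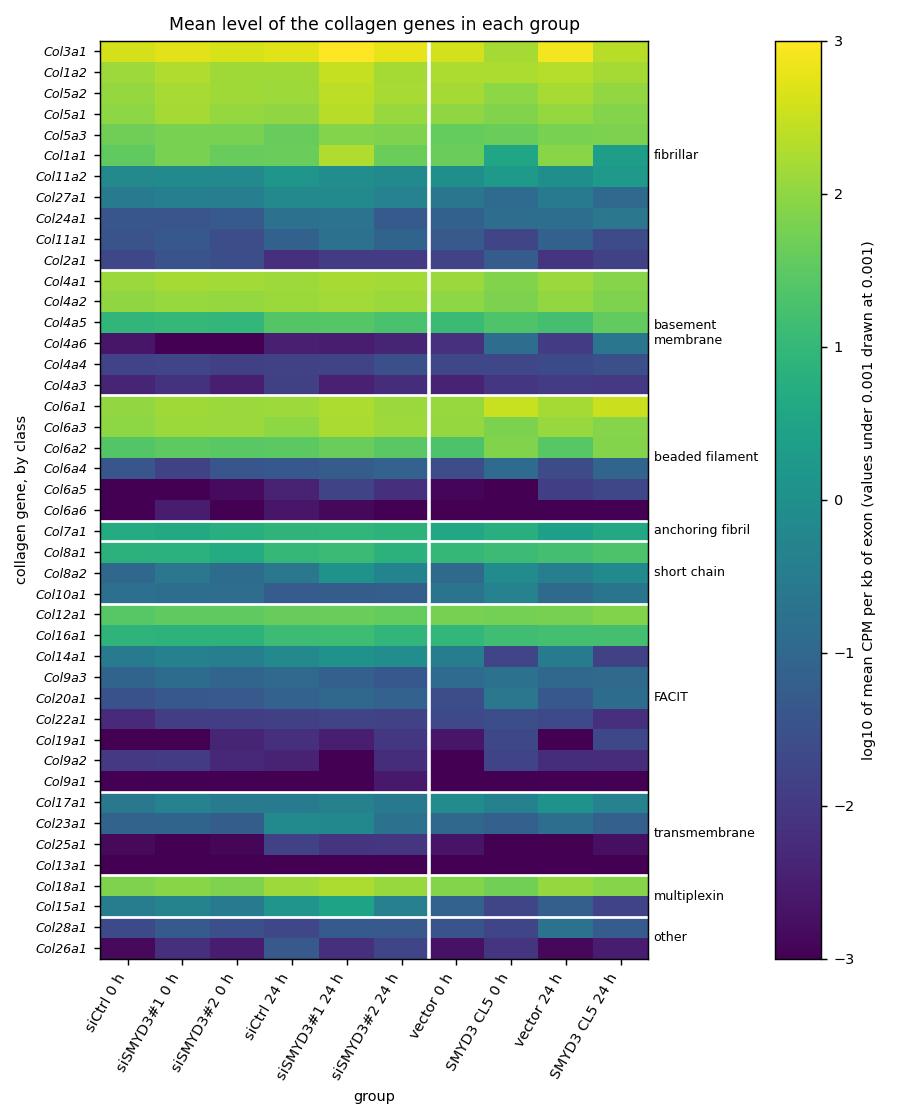
Mean level of each of the 44 collagen genes (rows, ordered by class and level) in the 10 groups (columns), as log10 of CPM per kb of exon, with values under 0.001 drawn at 0.001. Col3a1 is the brightest row in the siRNA and vector columns and Col6a1 in the SMYD3 CL5 columns. Col13a1 is dark throughout, and Col1a1 darkens in the SMYD3 CL5 columns.

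A filter on low counts left 31 of the 44 genes in the siRNA fit and 34 in the overexpression fit, 31 of them in both. All 11 fibrillar genes were tested in each. Of the 6 basement membrane network genes 3 and 5 were tested, of the 6 beaded filament genes 4 and 4, of the 9 fibril-associated (FACIT) genes 5 and 5, and of the 4 transmembrane genes 2 and 2. The 3 short chain genes, the 2 multiplexins and the anchoring fibril gene Col7a1 were tested in both fits. The 10 genes tested in neither were Col22a1, Col26a1, Col4a3, Col19a1, Col9a2, Col6a5, Col25a1, Col6a6, Col9a1 and Col13a1, so that counts below leave them out. The threshold was an adjusted p of 0.01 over all genes of the fit.

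Differentiation of the control cells was taken first, to show what the collagen genes do over the first day. In siCtrl, 8 of the 31 tested collagen genes rose between 0 h and 24 h and 0 fell, where 14.6% of all genes tested rose and 14.8% fell. The median log2 fold change was 0.38 over the collagen genes and 0.03 over all genes. The genes that rose were not the most abundant fibrillar ones: they were Col23a1, Col4a5, Col18a1, Col15a1, Col24a1, Col27a1, Col11a2 and Col14a1. The differentiated muscle markers rose as well in this contrast, 10 of 10.

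Col23a1 encodes a transmembrane collagen that can be shed from the cell surface. In siCtrl at 0 h it measured 0.736 CPM in the TRIzol library and 0.256 and 0.411 CPM in the NucleoSpin libraries, and at 24 h 6.29 CPM in the TRIzol library and 3.68 and 2.61 CPM in the others. All 3 libraries at 24 h lay above all 3 at 0 h, a rise of 3.13 on the log2 scale (SE 0.333, 8.78-fold, edgeR adjusted p = 8.62e-07). Col18a1 encodes the basement membrane proteoglycan from which endostatin is cut. Its level was 600 CPM (TRIzol), 418 and 417 CPM (NucleoSpin) at 0 h and 1070 CPM (TRIzol), 913 and 773 CPM (NucleoSpin) at 24 h. The groups did not overlap, and the rise was 1.93-fold (log2 0.95, SE 0.118, edgeR adjusted p = 4.39e-06). Col15a1, the other multiplexin, found in muscle basement membrane, rose 4.27-fold (edgeR adjusted p = 0.00257), from 1.14, 2.41 and 2.76 CPM to 6.05, 11.1 and 8.55 CPM.

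Col4a5, a type IV chain, was the basement membrane gene that rose in siCtrl. It went from 62, 64.9 and 54.3 CPM to 140, 190 and 167 CPM, a 2.72-fold change (log2 1.44, SE 0.164, edgeR adjusted p = 3.14e-06). The minor fibrillar genes Col27a1 and Col11a2 rose 2.26-fold and 2.04-fold (edgeR adjusted p = 0.0011 and 0.000891), without overlap of the libraries. For Col24a1 (3.96-fold, edgeR adjusted p = 0.00164) and Col14a1 (2.03-fold, edgeR adjusted p = 0.00485) the libraries at the 2 times overlapped, because TRIzol and NucleoSpin libraries differed in level. Without the first NucleoSpin library of siCtrl at 0 h (replicate 2), or without the other (replicate 3), 5 genes were called, and Col14a1, Col15a1 and Col24a1 were not among them.

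In vector cells, 0 of 34 tested collagen genes passed the threshold over the same day by edgeR, and 0 by DESeq2. At an unadjusted p under 0.05 by edgeR were 4, beside 1256 of all 17835 genes tested. No gene at all passed there (0% of 17835), with 2 libraries per group. SMYD3 CL5 gave 0 collagen genes by both tools as well, where 0% of all genes passed edgeR. At an unadjusted p under 0.05 by edgeR were 3, beside 1137 of all 17835 genes. The vector libraries at 24 h held 57.3 to 80.4 CPM of the differentiated muscle markers, against 758 to 2420 CPM in siCtrl at 24 h. The 2 experiments differ in cells and extraction method and were scaled apart, and no test compared them. The part of this in the lack of calls was not tested.

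At 24 h, cells labelled siSMYD3#1 had a higher collagen share than siCtrl. The share of counts on the 44 genes was 2.78% ± 0.309 (SD, n = 3, 2.43% to 3.02%) against 1.57% ± 0.26 (SD, n = 3, 1.31% to 1.83%) in siCtrl, without overlap. With siSMYD3#2 it was 1.73% ± 0.258 (SD, n = 3, 1.57% to 2.03%), overlapping siCtrl. At 0 h the shares were 1.26% ± 0.059 for siCtrl, 1.7% ± 0.0556 for siSMYD3#1 and 1.42% ± 0.0978 for siSMYD3#2 (SD, n = 3 each). The fibrillar class held 65% to 75.2% of the collagen counts in siSMYD3#1 at 24 h and 56.3% to 65.9% in siCtrl. These shares are given as a description, without a test.

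**Figure D2:**
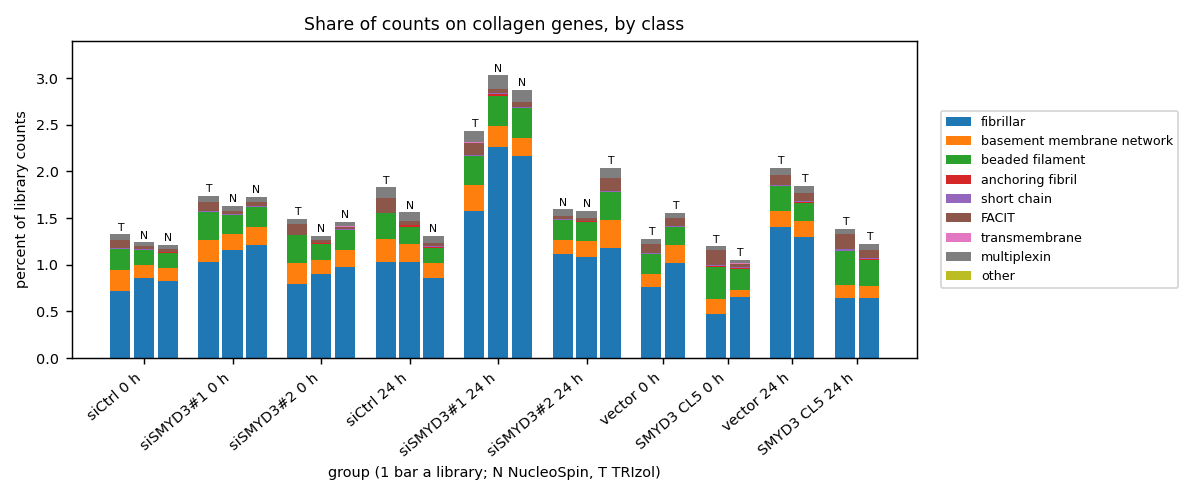
Percent of each library's counts on collagen genes, 1 bar per library (N NucleoSpin, T TRIzol), stacked by collagen class. The siSMYD3#1 libraries at 24 h reach 2.43% to 3.02%, above all other libraries, and most of their height is fibrillar.

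Gene by gene, siSMYD3#1 against siCtrl at 24 h raised 8 of 31 tested collagen genes and lowered 0, where 2.91% of all genes tested rose and 2.94% fell. The 8 were the fibrillar genes Col1a1, Col1a2, Col3a1, Col5a1, Col5a2 and Col5a3 (6 of 11 fibrillar genes tested), Col6a3 (1 of 4 beaded filament genes) and Col18a1 (1 of 2 multiplexins). None of the 3 type IV, 3 short chain, 5 FACIT and 2 transmembrane genes tested passed by edgeR, nor did the anchoring fibril gene Col7a1. Of these 4 classes 2, 2, 1 and 0 genes were at an unadjusted p under 0.05 by edgeR, beside 3815 of all 15820 genes tested. The median log2 fold change was 0.96 over the fibrillar genes, 0.41 over all 31 and -0.00 over all genes tested. The call for Col18a1 was lost with a replicate block (edgeR adjusted p = 0.0131), which left 7 genes. Without the extraction covariate only Col1a1 was called, and with the NucleoSpin libraries alone 13 genes were.

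Col1a1 and Col1a2 encode the chains of type I collagen, the main fibril former of tendon, bone and the muscle's connective tissue. Col1a1 (ENSMUSG00000001506, GRCm38 chr11:94936224-94953042, plus strand) measured 279 CPM in the TRIzol library and 303 and 242 CPM in the NucleoSpin libraries of siCtrl at 24 h. With siSMYD3#1 it was 657 CPM (TRIzol), 1750 and 1390 CPM (NucleoSpin), and with siSMYD3#2 321 CPM (TRIzol), 314 and 240 CPM (NucleoSpin). All siSMYD3#1 libraries lay above all others, and the siSMYD3#2 libraries overlapped siCtrl. The siSMYD3#1 rise was 4.3-fold (log2 2.103, SE 0.28, edgeR adjusted p = 0.00024), made of 5.76-fold between the NucleoSpin means and 2.35-fold between the single TRIzol libraries.

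Col1a2 (chr6:4504814-4541544, plus strand) stood higher throughout and moved less. Its siCtrl libraries at 24 h were at 1730 CPM (TRIzol), 1870 and 1600 CPM (NucleoSpin), and those labelled siSMYD3#1 at 2790 CPM (TRIzol), 4430 and 4140 CPM (NucleoSpin). The siSMYD3#2 libraries, at 1710 CPM (TRIzol), 2020 and 1930 CPM (NucleoSpin), lay in or just above the siCtrl range. The siSMYD3#1 rise was 2.13-fold (log2 1.09, SE 0.114, edgeR adjusted p = 5.4e-06). The ratio of Col1a1 to Col1a2, per kb, was accordingly 0.61 ± 0.152 in siSMYD3#1 against 0.3 ± 0.0112 in siCtrl and 0.295 ± 0.0595 in siSMYD3#2 at 24 h (SD, n = 3 each), a description without a test.

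Col3a1 (chr1:45311538-45349706, plus strand) encodes type III collagen, which shares fibrils with type I. It had the highest level per kb of the collagen genes in the siRNA libraries. At 24 h siCtrl measured 4730 CPM (TRIzol), 5510 and 4730 CPM (NucleoSpin), siSMYD3#1 7080 CPM (TRIzol), 11900 and 11700 CPM (NucleoSpin), and siSMYD3#2 5330 CPM (TRIzol), 6200 and 6060 CPM (NucleoSpin). The libraries labelled siSMYD3#1 were again the highest, with a rise of 1.99-fold (log2 0.99, SE 0.113, edgeR adjusted p = 1.24e-05), 2.3-fold within NucleoSpin and 1.5-fold between the TRIzol libraries. The siSMYD3#2 difference was 1.17-fold and not past the threshold (edgeR adjusted p = 0.242). Col3a1 shares 141 exon bases with another gene on its strand, so that part of its reads is uncertain.

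Type V chains sit in the core of type I fibrils and limit their thickness. Col5a1 (chr2:27886425-28039514) was at 1030 CPM (TRIzol), 850 and 667 CPM (NucleoSpin) in siCtrl at 24 h. It was at 1990 CPM (TRIzol), 1930 and 1770 CPM (NucleoSpin) in siSMYD3#1 and at 1410 CPM (TRIzol), 793 and 790 CPM (NucleoSpin) in siSMYD3#2. Here the TRIzol library was the highest of its group in each, and the siSMYD3#1 rise was 2.27-fold (log2 1.18, SE 0.123, edgeR adjusted p = 5.4e-06), 2.43-fold in NucleoSpin and 1.93-fold in TRIzol. Col5a2 (chr1:45374321-45503282) went from 1480 CPM (TRIzol), 1180 and 1050 CPM (NucleoSpin) to 2660 CPM (TRIzol), 2160 and 2350 CPM (NucleoSpin) with siSMYD3#1, and its siSMYD3#2 libraries held 2270 CPM (TRIzol), 1260 and 1250 CPM (NucleoSpin). The siSMYD3#1 rise in Col5a2 was 1.95-fold (log2 0.96, SE 0.105, edgeR adjusted p = 8.69e-06), and the siSMYD3#2 difference, 1.26-fold, missed the threshold (edgeR adjusted p = 0.0519).

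Col5a3 (chr9:20770050-20815067) was the collagen gene called higher with both siRNAs at 24 h. Its levels were 249 CPM (TRIzol), 328 and 248 CPM (NucleoSpin) in siCtrl, 364 CPM (TRIzol), 654 and 553 CPM (NucleoSpin) in siSMYD3#1, and 422 CPM (TRIzol), 509 and 506 CPM (NucleoSpin) in siSMYD3#2. Every library of either siRNA lay above every siCtrl library. The rise was 1.85-fold with siSMYD3#1 (log2 0.89, SE 0.133, edgeR adjusted p = 0.000206) and 1.74-fold with siSMYD3#2 (log2 0.80, SE 0.133, edgeR adjusted p = 0.00102). The contrast between the siRNAs was 0.09 on the log2 scale, with an interval of 2 SE from -0.17 to 0.36. Both comparisons use the same siCtrl libraries.

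Col6a3 encodes the longest chain of type VI collagen, the filament whose loss causes congenital muscular dystrophies. At 24 h Col6a3 (chr1:90765923-90843971) measured 1440 CPM (TRIzol), 1010 and 928 CPM (NucleoSpin) in siCtrl, 2060 CPM (TRIzol), 2100 and 1900 CPM (NucleoSpin) in siSMYD3#1 and 2170 CPM (TRIzol), 1310 and 1320 CPM (NucleoSpin) in siSMYD3#2. The siSMYD3#1 rise was 1.86-fold (log2 0.90, SE 0.136, edgeR adjusted p = 0.000224), and the siSMYD3#2 difference was 1.4-fold, not past the threshold (edgeR adjusted p = 0.0294). Its partner Col6a1 measured 749 CPM (TRIzol), 544 and 483 CPM (NucleoSpin) in siCtrl, 681 CPM (TRIzol), 788 and 885 CPM (NucleoSpin) in siSMYD3#1, and 575 CPM (TRIzol), 551 and 501 CPM (NucleoSpin) in siSMYD3#2. The siSMYD3#1 and siCtrl libraries of Col6a1 overlapped (1.33-fold, edgeR adjusted p = 0.0779). Col18a1, last of the 8, had 1190 CPM (TRIzol), 1400 and 1230 CPM (NucleoSpin) in siSMYD3#1 and 1010 CPM (TRIzol), 747 and 762 CPM (NucleoSpin) in siSMYD3#2, a 1.41-fold siSMYD3#1 rise (log2 0.50, SE 0.117, edgeR adjusted p = 0.00881) that was 1.11-fold between the TRIzol libraries.

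Type IV collagen did not pass. Col4a1, the chain found with Col4a2 in nearly every basement membrane, measured 1220 CPM (TRIzol), 902 and 786 CPM (NucleoSpin) in siCtrl at 24 h. Its siSMYD3#1 libraries held 1490 CPM (TRIzol), 1160 and 990 CPM (NucleoSpin), and its siSMYD3#2 libraries 1610 CPM (TRIzol), 808 and 895 CPM (NucleoSpin). The groups overlapped, with log2 fold changes of 0.33 (2 SE interval 0.11 to 0.55, edgeR adjusted p = 0.0661) and 0.15 (2 SE interval -0.07 to 0.38, edgeR adjusted p = 0.461). Col4a1 and Col4a2 lie head to head, and their annotated starts share 22 bases (chr8:11312805-11312826, printed on the plus strand):
Col4a1-Col4a2: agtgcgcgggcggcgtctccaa
Their ratio per kb kept between 1.01 and 1.31 in every one of the 26 libraries, whereas the ratio of Col1a1 to Col1a2 ran from 0.0114 to 0.747.

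**Figure D3:**
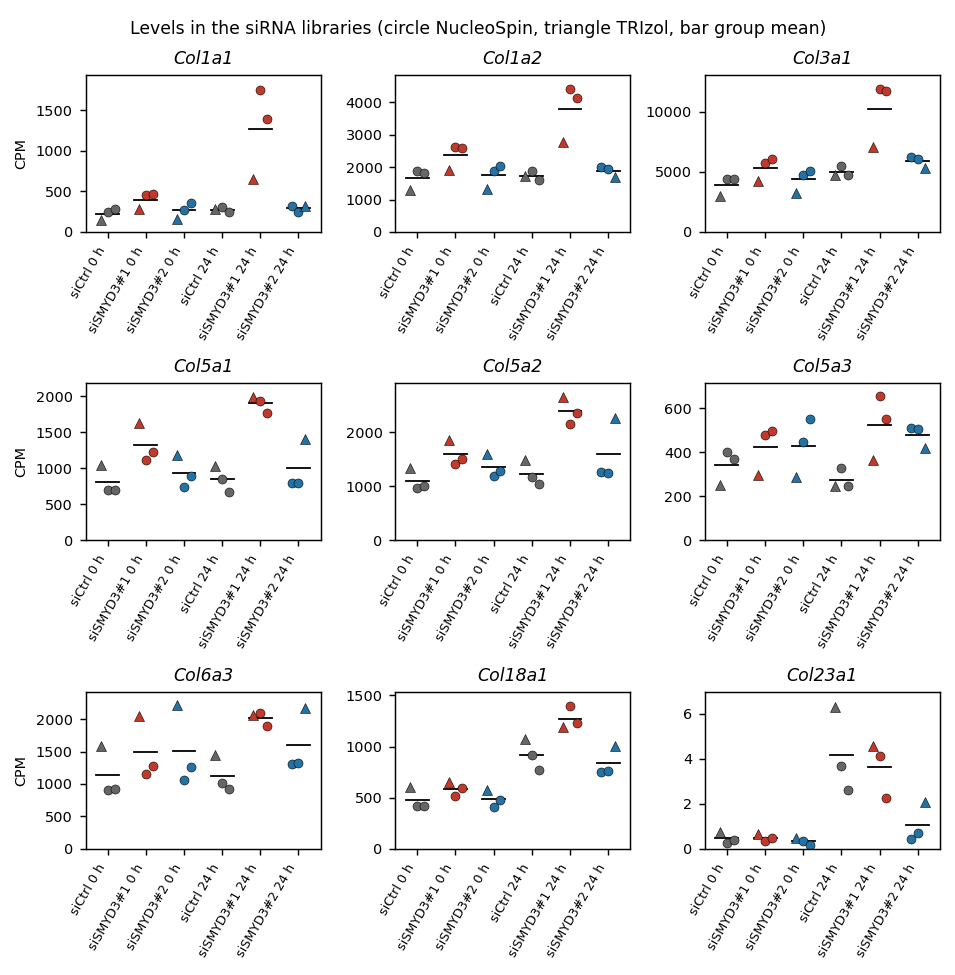
CPM of 9 collagen genes in each siRNA library (linear axis from 0, circles NucleoSpin, triangles TRIzol, bar for the group mean, no error bar). At 24 h the siSMYD3#1 libraries lie above all siCtrl libraries in each of the first 8 genes, and Col23a1 is lowest at 24 h with siSMYD3#2.

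With siSMYD3#2, the siRNA with which the Smyd3 difference passed the threshold, 2 collagen genes passed it at 24 h. Of the 31, 1 rose, Col5a3, and 1 fell, Col23a1, where 1.66% of all genes tested rose and 2.04% fell. By edgeR 12 of the 31 had an unadjusted p under 0.05, beside 3530 of all 15820 genes tested. The median log2 fold change over the 31 was 0.01, with 16 genes above 0 and 15 below. Class medians went both ways, with 0.32 for the 3 short chain and 0.20 for the 11 fibrillar genes. They were -0.91 for the 2 multiplexins and -1.11 for the 2 transmembrane genes. Col23a1 (chr11:51289920-51583918) measured 2.08 CPM (TRIzol), 0.424 and 0.692 CPM (NucleoSpin), below every siCtrl library of that time. It was 4.04-fold lower (log2 -2.02, SE 0.323, edgeR adjusted p = 0.00075), a gene that rose with differentiation in siCtrl. In the libraries labelled siSMYD3#1 Col23a1 was at 4.56 CPM (TRIzol), 4.13 and 2.26 CPM (NucleoSpin), which overlapped siCtrl. DESeq2 called 4 collagen genes in this contrast, 2 higher and 2 lower, and with the NucleoSpin libraries alone edgeR called 6, 2 higher and 4 lower.

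The siRNAs were then compared with each other at 24 h, since a call with one and not with the other is no test of their difference. Of the 31 genes 9 were higher in the libraries labelled siSMYD3#1 and 0 lower, where 2.05% of all genes tested were higher and 1.31% lower. They were Col1a1 (4-fold, edgeR adjusted p = 0.000733), Col1a2 (1.97-fold, edgeR adjusted p = 4.66e-05), Col3a1 (1.7-fold, edgeR adjusted p = 0.000365), Col5a1, Col5a2, Col18a1, Col23a1, Col8a1 and Col15a1. This contrast and that against siCtrl share the siSMYD3#1 libraries. Col5a3 and Col6a3 were not among the 9. For Col6a3 the difference between the siRNAs was 0.41 on the log2 scale (2 SE interval 0.14 to 0.68, edgeR adjusted p = 0.0709). Col15a1 differed 5.9-fold in its fitted value but overlapped, with 3.58 CPM (TRIzol), 21.2 and 32.1 CPM (NucleoSpin) in siSMYD3#1 against 2.04 CPM (TRIzol), 4.36 and 1.61 CPM (NucleoSpin) in siSMYD3#2. Without either NucleoSpin library of siSMYD3#2 at 24 h (replicates 1 and 2) 4 genes were called, and 5 without siSMYD3#1 24 h replicate 2.

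**Figure D4:**
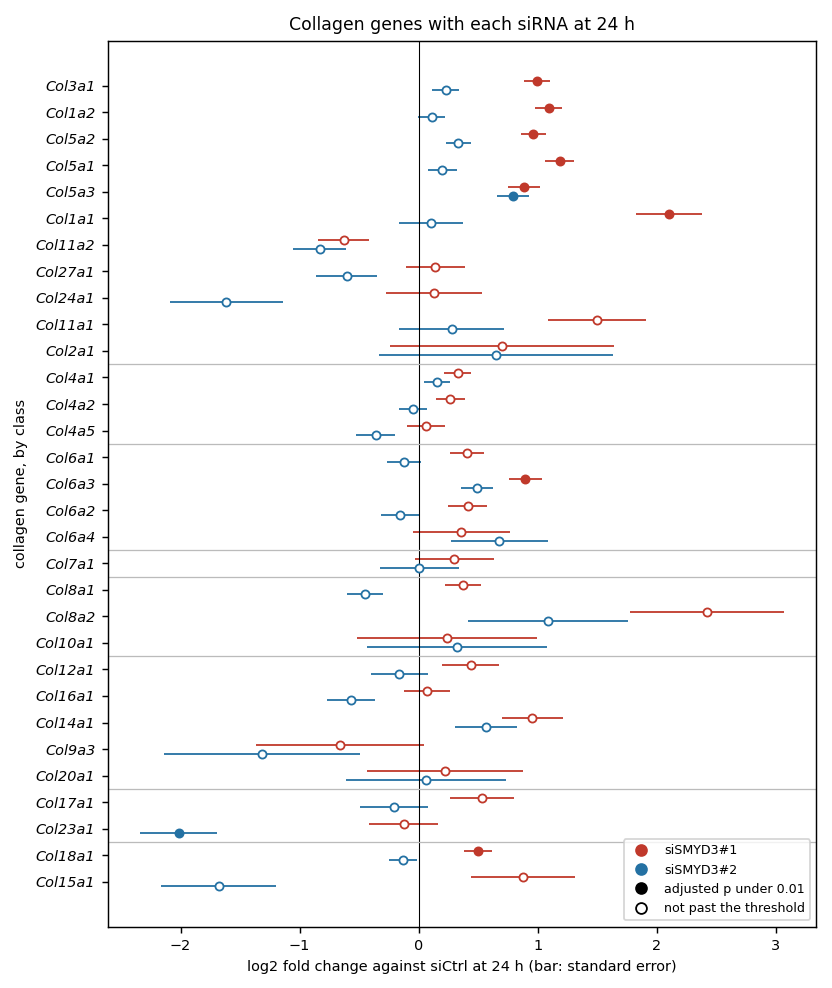
Log2 fold change of the 31 tested collagen genes against siCtrl at 24 h for each siRNA, with its SE as the bar and filled points for an adjusted p under 0.01. The fibrillar genes Col1a1 to Col5a3 lie to the right for siSMYD3#1, with Col1a1 farthest at a 4.3-fold rise, and only Col5a3 and Col23a1 are filled for siSMYD3#2.

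At 0 h, before differentiation, siSMYD3#1 raised 2 collagen genes and lowered 0, where 0.575% of all genes tested rose and 0.853% fell. Col5a1 measured 1630 CPM (TRIzol), 1120 and 1230 CPM (NucleoSpin) against 1050 CPM (TRIzol), 703 and 694 CPM (NucleoSpin) in siCtrl, a 1.63-fold rise (log2 0.71, SE 0.122, edgeR adjusted p = 0.0023) without overlap. Col5a2 measured 1860 CPM (TRIzol), 1420 and 1500 CPM (NucleoSpin) against 1340 CPM (TRIzol), 965 and 1000 CPM (NucleoSpin), a 1.45-fold rise (log2 0.54, SE 0.104, edgeR adjusted p = 0.00524). Both were among the 8 genes raised at 24 h. The type I and III genes lay in the same direction without passing: Col1a1 held 278 CPM (TRIzol), 452 and 467 CPM (NucleoSpin) against 150 CPM (TRIzol), 242 and 281 CPM (NucleoSpin), 1.79-fold (edgeR adjusted p = 0.132).

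Col1a2 at 0 h was at 1900 CPM (TRIzol), 2610 and 2600 CPM (NucleoSpin) with siSMYD3#1 and at 1280 CPM (TRIzol), 1880 and 1820 CPM (NucleoSpin) with siCtrl, 1.43-fold (edgeR adjusted p = 0.0129). Col3a1 was at 4240 CPM (TRIzol), 5770 and 6030 CPM (NucleoSpin) against 2960 CPM (TRIzol), 4420 and 4400 CPM (NucleoSpin), 1.37-fold (edgeR adjusted p = 0.0292). DESeq2 called 4 genes in this contrast. Leaving out any 1 of the 3 siCtrl libraries at 0 h, or siSMYD3#1 0 h replicate 2 or 3, left 0 calls, and without siCtrl 24 h replicate 2, siSMYD3#1 0 h replicate 1 or siSMYD3#1 24 h replicate 2 only Col5a1 was called.

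The remaining named genes did not pass with siSMYD3#1 at 0 h. Col5a3 measured 252 CPM (TRIzol), 402 and 368 CPM (NucleoSpin) in siCtrl and 299 CPM (TRIzol), 478 and 495 CPM (NucleoSpin) in siSMYD3#1. Col6a3 was at 1590 CPM (TRIzol), 905 and 927 CPM (NucleoSpin) in siCtrl and at 2050 CPM (TRIzol), 1150 and 1270 CPM (NucleoSpin) in siSMYD3#1. Each of the 2 genes was higher in siSMYD3#1 within its extraction method, but the groups overlapped across methods (edgeR adjusted p = 0.274 and 0.152). Col6a1 held 437 CPM (TRIzol), 454 and 540 CPM (NucleoSpin) against 661 CPM (TRIzol), 596 and 628 CPM (NucleoSpin), higher in all 3 libraries (edgeR adjusted p = 0.173). Col4a1 held 1220 CPM (TRIzol), 790 and 773 CPM (NucleoSpin) against 1350 CPM (TRIzol), 1020 and 1120 CPM (NucleoSpin), which overlapped (edgeR adjusted p = 0.0942). Col18a1 with siSMYD3#1 was at 655 CPM (TRIzol), 520 and 594 CPM (NucleoSpin), 1.24-fold above siCtrl (edgeR adjusted p = 0.189), and Col23a1 at 0.676 CPM (TRIzol), 0.35 and 0.473 CPM (NucleoSpin), inside the siCtrl range.

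With siSMYD3#2 at 0 h, edgeR called 0 of the 31 genes and DESeq2 0, where edgeR called 0.531% of all genes. At an unadjusted p under 0.05 by edgeR were 5 of the 31, beside 1596 of all 15820 genes tested. Col1a1 measured 164 CPM (TRIzol), 271 and 361 CPM (NucleoSpin), Col1a2 1330 CPM (TRIzol), 1890 and 2040 CPM (NucleoSpin), and Col3a1 3230 CPM (TRIzol), 4760 and 5080 CPM (NucleoSpin). All 3 genes overlapped siCtrl. Col5a1 was at 1180 CPM (TRIzol), 741 and 887 CPM (NucleoSpin), Col5a2 at 1590 CPM (TRIzol), 1190 and 1290 CPM (NucleoSpin) and Col5a3 at 290 CPM (TRIzol), 449 and 553 CPM (NucleoSpin). Their log2 differences from siCtrl, 0.20, 0.31 and 0.33, did not pass (edgeR adjusted p = 0.625, 0.233 and 0.362). Col6a3 measured 2220 CPM (TRIzol), 1060 and 1260 CPM (NucleoSpin), Col6a1 480 CPM (TRIzol), 522 and 615 CPM (NucleoSpin), and Col4a1 1320 CPM (TRIzol), 883 and 1030 CPM (NucleoSpin). Col18a1 was at 575 CPM (TRIzol), 410 and 481 CPM (NucleoSpin) and Col23a1 at 0.482 CPM (TRIzol), 0.349 and 0.168 CPM (NucleoSpin). All 5 overlapped siCtrl.

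Whether the siRNA effects grew over the day was tested as an interaction. For siSMYD3#1 edgeR called 0 of 31 genes (0.215% of all genes) and for siSMYD3#2 0 (0.019% of all genes), and DESeq2 called 0 for each. At an unadjusted p under 0.05 by edgeR were 10 of the 31 for siSMYD3#1, beside 1388 of all 15820 genes tested. For siSMYD3#2 6 of the 31 were, beside 1585 of all genes. The Col1a1 effect of siSMYD3#1 was larger at 24 h by 1.27 on the log2 scale (SE 0.382, edgeR adjusted p = 0.241), which is not past the threshold. With NucleoSpin libraries alone 3 genes passed, Col1a1, Col1a2 and Col3a1, all higher at 24 h, and Col6a3 alone passed without siSMYD3#1 24 h replicate 1.

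The differentiated muscle markers moved with both siRNAs at 24 h. All 10 fell with siSMYD3#1 (median log2 fold change -3.56, summed level 100 to 193 CPM against 758 to 2420 CPM in siCtrl), and 9 of 10 fell with siSMYD3#2 (median -2.20, 335 to 390 CPM). A summed level of 171 to 442 CPM was found for the 8 fibroblast markers in siCtrl at 24 h, 214 to 574 CPM with siSMYD3#1 and 146 to 477 CPM with siSMYD3#2. The 5 fibroblast markers tested had a median log2 fold change of 0.55 with siSMYD3#1, and 0 of them passed the threshold. With siSMYD3#2 their median was 0.18, and Dcn was the marker that fell. Osteoblast markers summed to 57.3 to 76.4 CPM with siSMYD3#1 and 50.9 to 72.2 CPM with siCtrl, with Bglap and Alpl under 1 CPM. Chondrocyte markers summed to 40.7 to 55.7 CPM and 57.2 to 68.8 CPM, and adipocyte markers to 13.6 to 17.4 CPM and 12.3 to 14 CPM. The part of these cell states in the collagen differences was not tested, and in these bulk samples fewer cells of a type and less RNA per cell cannot be told apart.

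Collagen chains need a long series of enzymes after translation: prolyl and lysyl hydroxylases, chaperones and export factors, propeptide proteases and the lysyl oxidases that crosslink fibrils. A list of 50 such genes and of collagen receptors was followed beside the chains, 42 of them tested in the siRNA fit. With siSMYD3#1 at 24 h 17 of the 42 rose and 1 fell, with a median of 0.38, where 2.91% of all genes tested rose and 2.94% fell. By role, 6 of 14 hydroxylation and glycosylation genes rose, 3 of 10 folding and export genes, 3 of 6 propeptide genes, 2 of 5 crosslinking genes and 3 of 7 receptors. Lox, the lysyl oxidase, rose 2.34-fold (log2 1.22, SE 0.135, edgeR adjusted p = 1.09e-05). Itga10, a collagen-binding integrin subunit, rose 4.34-fold (log2 2.12, SE 0.3, edgeR adjusted p = 0.000116), and Adamts2, the protease that removes the amino propeptide of fibrillar chains, 2.12-fold (log2 1.09, SE 0.164, edgeR adjusted p = 0.000263). Tmem38b, an endoplasmic reticulum cation channel needed for collagen folding, was the gene that fell, by 0.73 on the log2 scale (edgeR adjusted p = 0.00179).

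With siSMYD3#2 at 24 h 3 genes of the list rose and 0 fell, where 1.66% of all genes tested rose and 2.04% fell. The 3 genes were Loxl4, another lysyl oxidase (1.61-fold, edgeR adjusted p = 0.000702), Mrc2, the endocytic receptor for collagen (1.5-fold, edgeR adjusted p = 0.00241), and Itgb1, the beta subunit of the collagen-binding integrins (1.34-fold, edgeR adjusted p = 0.00267). At 0 h siSMYD3#1 raised 3 of the 42, P3h1, Itgb1 and Lox, and lowered 0, where 0.575% of all genes tested rose and 0.853% fell. Lox rose 1.76-fold there (edgeR adjusted p = 0.00174). With siSMYD3#2 at 0 h edgeR called 0 of the 42, where it called 0.531% of all genes. At an unadjusted p under 0.05 by edgeR were 6 of the 42, beside 1596 of all 15820 genes tested. In siCtrl the list moved both ways over the day, with 9 of 42 risen and 5 fallen, where 14.6% of all genes tested rose and 14.8% fell. Itga10 (2.55-fold, edgeR adjusted p = 0.00276), Tmem38b (2.26-fold, edgeR adjusted p = 2.75e-06) and Loxl2 (2.11-fold, edgeR adjusted p = 1.21e-06) rose most. Adamts3 (4.91-fold lower, edgeR adjusted p = 4.61e-05), Pcolce2 (1.85-fold lower, edgeR adjusted p = 0.000737) and Loxl4 (1.59-fold lower, edgeR adjusted p = 6.45e-05) fell most.

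The promoters of raised fibrillar genes were read because SMYD3 has been described to bind DNA at the motifs CCCTCC or GAGGGG. Only CCCTCC was searched here. Of the 44 genes 35 had a RefSeq promoter window (250 bases before to 50 after the start, GRCm38.p6), with 38 windows in all, and of the 8 genes raised with siSMYD3#1 at 24 h 6 had one, Col1a1 and Col5a2 excepted. The 250 bases before the start are shown for 4 of these, 5′ to 3′ on the gene's strand, with CCCTCC and its complement GGAGGG in capitals. Col1a2 is chr6:4505368-4505617 (+), Col3a1 chr1:45311288-45311537 (+), Col5a1 chr2:27886175-27886424 (+) and Col5a3 chr9:20815068-20815317 (-):
Col1a2: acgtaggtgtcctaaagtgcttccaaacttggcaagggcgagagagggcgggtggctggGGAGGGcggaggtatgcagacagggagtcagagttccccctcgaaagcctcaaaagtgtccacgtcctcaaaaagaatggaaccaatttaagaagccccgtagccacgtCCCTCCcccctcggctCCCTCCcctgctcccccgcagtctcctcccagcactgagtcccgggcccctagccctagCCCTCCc
Col3a1: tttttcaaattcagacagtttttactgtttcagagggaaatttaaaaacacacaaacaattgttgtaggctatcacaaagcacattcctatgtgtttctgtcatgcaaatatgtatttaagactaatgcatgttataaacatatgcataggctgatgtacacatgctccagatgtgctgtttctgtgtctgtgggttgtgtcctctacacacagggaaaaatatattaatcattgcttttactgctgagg
Col5a1: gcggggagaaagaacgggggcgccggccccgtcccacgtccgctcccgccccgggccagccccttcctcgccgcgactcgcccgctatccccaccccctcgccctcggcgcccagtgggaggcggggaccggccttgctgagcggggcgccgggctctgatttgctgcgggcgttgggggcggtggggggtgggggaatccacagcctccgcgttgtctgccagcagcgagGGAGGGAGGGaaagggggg
Col5a3: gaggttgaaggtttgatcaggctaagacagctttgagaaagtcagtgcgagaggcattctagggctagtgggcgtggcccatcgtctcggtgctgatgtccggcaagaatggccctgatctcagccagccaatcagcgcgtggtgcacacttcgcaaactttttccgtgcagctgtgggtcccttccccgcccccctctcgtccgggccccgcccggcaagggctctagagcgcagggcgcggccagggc

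Searched on both strands, CCCTCC stood in 23 of the 38 collagen windows (60.5%), in 35.2% of all 32817 windows of the same length, and in 4 of the 7 windows of the raised genes (57.1%). The Col1a2 window held 4 matches to CCCTCC and the Col5a1 window 2 that overlap, whereas the Col3a1 and Col5a3 windows held 0. The other described motif, GAGGGG, was not counted. Its complement CCCCTC can be read in the printed Col1a2, Col5a1 and Col5a3 sequences. The GC-rich letters GGGCGG followed the same pattern, with 57.9% of collagen windows, 32.7% of all windows and 57.1% of those of the raised genes. CCAAT was in 34.2% of collagen and 33.8% of all windows, TATAAA in 13.2% and 12.4%, and the E-box letters CANNTG, the motif of myogenic factors, in 50% and 66.2%. A match describes the letters only, and GENCODE M21 places the outermost start of Col1a2 before the window printed for it.

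In the overexpression clone, the levels of Col1a1 and Col3a1 lay below those of vector cells and the levels of Col6a1 and Col6a2 above them, without a collagen gene past the edgeR threshold. Col1a1 measured 186 and 404 CPM in the vector libraries at 0 h and 9.28 and 37.2 CPM in SMYD3 CL5, and at 24 h 542 and 570 CPM against 11.2 and 17.3 CPM. Both SMYD3 CL5 libraries lay below both vector libraries at each time, with fitted differences of 12.7-fold at 0 h (log2 -3.67, SE 0.695, edgeR adjusted p = 0.0345) and 39.2-fold at 24 h (log2 -5.29, SE 0.752, edgeR adjusted p = 0.0126), neither past the threshold of 0.01. In all, 0 of 34 collagen genes passed edgeR at 0 h and 0 at 24 h, where 1.07% and 0.964% of all genes did. At an unadjusted p under 0.05 by edgeR were 17 of the 34 at 0 h, beside 3258 of all 17835 genes tested. At 24 h 14 of the 34 were, beside 2488 of all genes. DESeq2 called 9 collagen genes at 0 h and 6 at 24 h, given without its count over all genes. DESeq2 called 6 higher and 3 lower at 0 h and 3 of each at 24 h, and 4 or 5 genes passed edgeR at either time when 1 of the SMYD3 CL5 libraries at 0 h was left out. Those 2 libraries differed, with 157 and 890 CPM of differentiated muscle markers. The median over the 34 genes was 0.02 at 0 h and 0.09 at 24 h. With 2 libraries per group, libraries without overlap were common: 11 of the 34 genes lay higher so and 12 lower at 0 h. At 24 h 11 lay higher and 16 lower. The share of all genes without overlap was not counted.

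Since no collagen gene passed in this contrast, the genes below, other than the 6 of the highest level per kb and those called with the siRNAs, were chosen after their values were seen. Col1a2, the partner of Col1a1, did not follow it: the vector libraries held 1830 and 2680 CPM at 0 h and 2650 and 2740 CPM at 24 h, and SMYD3 CL5 1540 and 3110 CPM and 1770 and 2030 CPM. At 0 h the Col1a2 groups overlapped (log2 0.04, edgeR adjusted p = 0.962), and at 24 h SMYD3 CL5 was lower without passing (log2 -0.50, edgeR adjusted p = 0.67). The ratio of Col1a1 to Col1a2 per kb was 0.39 ± 0.00465 in vector and 0.014 ± 0.00297 in SMYD3 CL5 at 24 h (SD, n = 2 each). Col3a1 went the way of Col1a1: 3280 and 4330 CPM against 1250 and 1740 CPM at 0 h, and 7960 and 7370 CPM against 2230 and 2110 CPM at 24 h, 2.55-fold and 3.53-fold lower (edgeR adjusted p = 0.0533 and 0.0218). Col14a1, a FACIT of fibril surfaces, was low in vector cells at 1.75 to 2.55 CPM (63 to 147 counts) and held 2 to 8 counts in each SMYD3 CL5 library (edgeR adjusted p = 0.0127 at 0 h and 0.0149 at 24 h).

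Of the type V genes, Col5a1 and Col5a2 lay lower by less and Col5a3 did not. Col5a1 measured 745 and 973 CPM in vector at 0 h against 546 and 673 CPM in SMYD3 CL5, and 967 and 969 CPM against 641 and 639 CPM at 24 h (log2 -0.49 and -0.60, edgeR adjusted p = 0.34 and 0.343). Col5a2 held 1230 and 1820 CPM against 908 and 921 CPM at 0 h, and 1580 and 1570 CPM against 1050 and 1030 CPM at 24 h (log2 -0.74 and -0.60, edgeR adjusted p = 0.201 and 0.383). Neither gene overlapped between vector and SMYD3 CL5 at the same time, and neither passed. Col5a3, at 245 and 286 CPM against 177 and 425 CPM at 0 h and 497 and 344 CPM against 454 and 453 CPM at 24 h, overlapped at both. Col4a1, at 786 and 1090 CPM against 656 and 437 CPM and then 954 and 904 CPM against 621 and 580 CPM, lay lower in SMYD3 CL5 without passing (edgeR adjusted p = 0.217 and 0.403). Col18a1 behaved alike, at 555 and 553 CPM against 336 and 387 CPM at 0 h and 767 and 852 CPM against 542 and 627 CPM at 24 h (edgeR adjusted p = 0.208 and 0.429). Col23a1 stayed under 1 CPM in all 8 libraries.

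Type VI was split between its chains. Col6a1 measured 567 and 472 CPM in vector and 1600 and 1200 CPM in SMYD3 CL5 at 0 h, and 780 and 573 CPM against 1710 and 1260 CPM at 24 h. Col6a2, also on chr10, measured 196 and 164 CPM against 626 and 602 CPM at 0 h and 275 and 187 CPM against 703 and 566 CPM at 24 h. Both SMYD3 CL5 libraries lay above both vector libraries for each gene and time, with Col6a1 at 2.69-fold and 2.2-fold (edgeR adjusted p = 0.049 and 0.11) and Col6a2 at 3.41-fold and 2.75-fold (edgeR adjusted p = 0.0168 and 0.0353). Col6a3, the third chain of the common type VI molecule, went the other way, at 1350 and 1390 CPM against 1010 and 593 CPM at 0 h and 1580 and 1320 CPM against 1100 and 892 CPM at 24 h (log2 -0.77 and -0.54, edgeR adjusted p = 0.251 and 0.542). The Col6a1 to Col6a3 ratio per kb was 1.04 ± 0.155 and 1.27 ± 0.12 in vector cells and 4.92 ± 0.84 and 4.05 ± 0.28 in SMYD3 CL5 (SD, n = 2 each, 0 h and 24 h).

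Among genes of low level, Col6a4, Col20a1, Col4a6, Col10a1 and the fibrillar gene Col11a2 were higher in the clone, and others such as Col17a1 were lower. Col11a2 measured 6.12 and 7.59 CPM in vector against 9.53 and 13.1 CPM in SMYD3 CL5 at 0 h. At 24 h it measured 6.71 and 6.9 CPM against 12.6 and 11.8 CPM. Col17a1, a transmembrane collagen, measured 4.96 and 4.72 CPM in vector against 3.66 and 1.64 CPM in SMYD3 CL5 at 0 h. At 24 h it measured 7.47 and 6.38 CPM against 2.89 and 2.53 CPM. Col6a4, a type VI chain, rested on 7 to 14 counts in the vector libraries and 17 to 48 in SMYD3 CL5, and Col20a1, a FACIT, on 3 to 15 and 14 to 56 counts (edgeR adjusted p = 0.0356 and 0.0635 for Col6a4, 0.0209 and 0.173 for Col20a1, at 0 h and 24 h). Col4a6, a type IV chain of smooth muscle and epithelial basement membrane, had 2 to 7 counts in the vector libraries and 84, 6, 104 and 38 counts in the SMYD3 CL5 libraries. Its pair at 0 h, 2.12 and 0.154 CPM, shows how far the 2 libraries of the clone lay apart there.

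**Figure D5:**
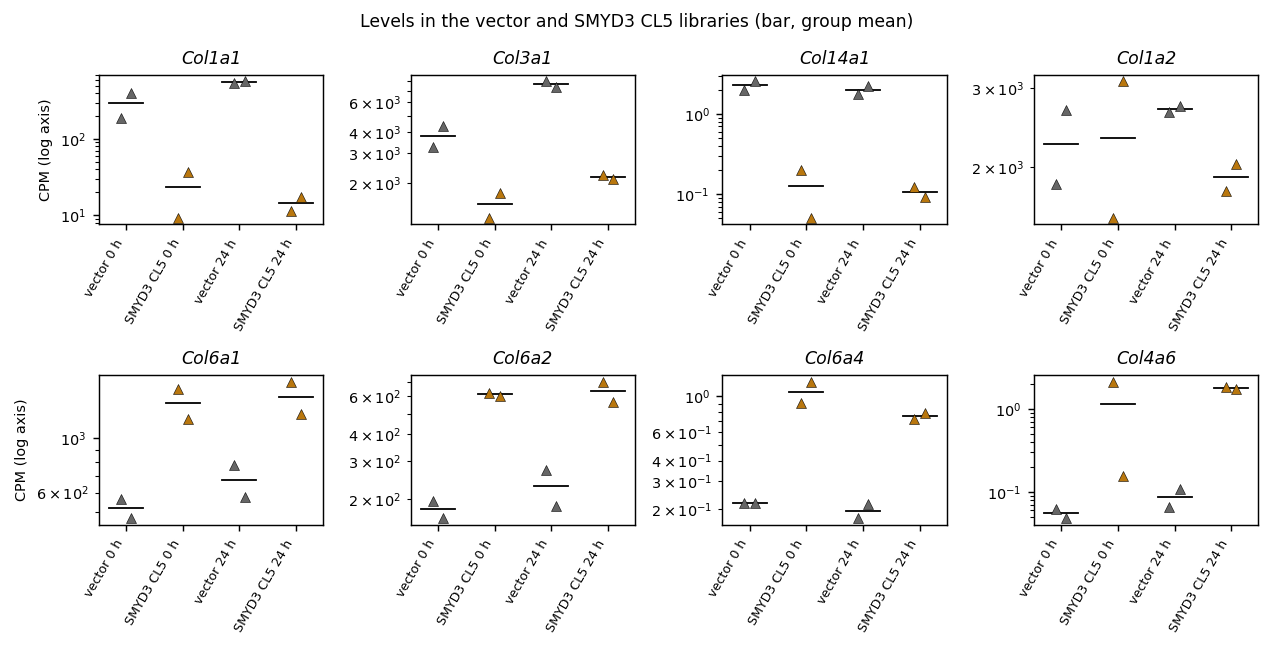
CPM of 8 collagen genes in the vector and SMYD3 CL5 libraries on log axes, 1 triangle per library (all TRIzol), bar for the group mean, no error bar. Col1a1, Col3a1 and Col14a1 lie lower in SMYD3 CL5 at both times and Col6a1, Col6a2 and Col6a4 higher, while Col1a2 overlaps at 0 h.

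The share of counts on collagen genes was 1.42% ± 0.195 in vector and 1.12% ± 0.103 in SMYD3 CL5 at 0 h, and 1.95% ± 0.136 and 1.31% ± 0.112 at 24 h (SD, n = 2 each). Fibrillar genes held 68.8% to 70.5% of it in vector at 24 h and 46.1% to 52.7% in SMYD3 CL5. The difference of the SMYD3 CL5 effect between the times was called for 0 of 34 genes by edgeR (0% of all genes) and for 0 by DESeq2. At an unadjusted p under 0.05 by edgeR were 0 of the 34, beside 312 of all 17835 genes tested. Of the processing and receptor list, 1 of 44 genes tested was called at 0 h by edgeR, where 1.07% of all genes were. It was Itga11, the integrin subunit that binds type I collagen, at 0.414 and 0.847 CPM in vector and 16.2 and 37.5 CPM in SMYD3 CL5 (log2 5.43, SE 0.676, edgeR adjusted p = 0.00771). At 24 h 0 of 44 were called by edgeR, where 0.964% of all genes were. At an unadjusted p under 0.05 by edgeR were 12 of the 44, beside 2488 of all 17835 genes. Differentiated muscle markers summed to 9.91 to 13.3 CPM in vector and 157 to 890 CPM in SMYD3 CL5 at 0 h, and to 57.3 to 80.4 CPM and 1620 to 1870 CPM at 24 h. The fibroblast markers summed to 362 to 384 CPM and 230 to 240 CPM at 0 h, and to 437 to 506 CPM and 205 to 261 CPM at 24 h. The part of either in the collagen values was not tested.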

How the data were processed

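RNA-seq counts of 26 C2C12 libraries were used. Per the labels, the authors made stranded mRNA libraries, checked reads with FastQC 0.11.5, aligned them to GRCm38 with HISAT2 2.1.0 and counted them per gene with featureCounts of Subread 1.6.3, and they deposited whole-number counts without normalization. The strand setting of the counting is not given in the sources used here. Of the 44 collagen genes, 3 overlap an exon of some other gene in sense and 10 in antisense, so that their reads are uncertain to that extent. Groups and extraction methods came from the public labels. Symbols, coordinates and exon lengths came from GENCODE M21, and promoter windows from RefSeq.

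The test was that of edgeR 4.0.16 in R 4.3.3 (filterByExpr, TMM, robust quasi-likelihood test, Benjamini-Hochberg over all genes tested, threshold 0.01). The siRNA fit held 18 libraries in 6 groups with extraction method as covariate (15820 genes), and the overexpression fit 8 libraries in 4 groups (17835 genes). An SE is the log2 fold change divided by the square root of the F value. Exon bases of a gene were merged over its transcripts for values per kb.

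Genes named with values were those past the threshold in a treatment contrast, the 6 highest per kb and, of the processing list, the 3 largest changes each way, with exceptions marked. The collagen genes, classes, lists and markers were chosen with earlier results of these data known. Same-numbered siRNA libraries, numbered as in the study's list of libraries (a legend of the study numbers the extraction methods otherwise), deviated together (18 correlations of 0.517 to 0.913), where each number has 1 extraction method, and less so among NucleoSpin libraries (6 correlations of -0.0776 to 0.421). The fit with the replicate block was therefore run beside the other.

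Tested on simulated counts, the siRNA design (siSMYD3#1 at 24 h) recovered 77.4% of genes changed by log2 1 and 96.4% at log2 2 with edgeR, and the overexpression design (SMYD3 CL5 at 24 h) 50.8% at log2 2 and 94.9% at log2 4. The simulation gave all genes of a fit the same spread, without an extraction effect or deviations shared by same-numbered libraries. These shares therefore check the fit and do not measure recovery in the real libraries. Alternatives were DESeq2 1.42.0, RLE size factors, no filter on low counts, no extraction covariate, NucleoSpin libraries only, the replicate block, protein-coding counts as denominator and leaving out each library.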

Additional observations from a re-analysis of the deposited data

How the results depend on the processing

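Of the single-gene values under all alternatives together, 1610 kept their direction and their side of the threshold, 119 fell short of it, 71 newly passed and 3 reversed, and of the counts and shares 263 stayed within the tolerance and 46 did not. Without the filter on low counts, the collagen genes called were 14 for siCtrl over time, 6 and 1 for siSMYD3#1 and siSMYD3#2 at 0 h, 15 and 7 at 24 h, 18 between the siRNAs, 4 and 1 for the interactions of siSMYD3#1 and siSMYD3#2, and 9 and 5 for SMYD3 CL5 at 0 h and 24 h; more genes were then tested. Without the extraction covariate they were 4 for siCtrl over time, 0 for siSMYD3#1 at 0 h, 1 and 0 for siSMYD3#1 and siSMYD3#2 at 24 h, and 0 between the siRNAs. With NucleoSpin libraries only they were 4 for siSMYD3#1 at 0 h, 13 and 6 for the siRNAs at 24 h, 17 between them and 3 for the siSMYD3#1 interaction. DESeq2 called 4 for siSMYD3#1 at 0 h, 4 for siSMYD3#2 at 24 h, and 9 and 6 for SMYD3 CL5. Same-numbered overexpression libraries correlated at -0.0313 to 0.574 over 8 values and share only a number; with the replicate block 2 genes passed in SMYD3 CL5 at 0 h (Col6a2 and Col1a1) and 1 at 24 h (Col1a1), and in the siRNA contrasts the replicate block changed no call of a treatment contrast at a named gene other than Col18a1. Leaving out 1 library at a time gave 5 to 10 genes for siCtrl over time, 0 to 3 for siSMYD3#1 at 0 h, 7 to 10 for siSMYD3#1 and 2 to 4 for siSMYD3#2 at 24 h, 4 to 11 between the siRNAs, 0 to 1 for the siSMYD3#1 interaction, 0 to 2 for SMYD3 CL5 over time (2 without SMYD3 CL5 0 h replicate 1), and 0 to 5 for SMYD3 CL5 against vector at either time. The 4 for siSMYD3#2 came without siSMYD3#1 24 h replicate 1. With siSMYD3#2 at 24 h the log2 fold change of Col1a2 ran from -0.007 (without siCtrl 24 h replicate 3) to 0.304 (without siCtrl 24 h replicate 1), and that of Col1a1 from -0.294 (without siSMYD3#2 24 h replicate 3) to 0.409 (without siCtrl 24 h replicate 1), with -0.063 without siCtrl 24 h replicate 3. Col18a1 with siSMYD3#1 at 24 h missed the threshold in 11 of 18 such runs (0.38 to 0.66). The cause of these changes was not tested. Counts under the alternatives, here and above, are given without the number of all genes called under each. They show how the collagen calls varied and not whether collagen genes were called more often than other genes.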
